A study of Arabidopsis thaliana with 9 samples.

Results

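The levels of 10 genes from 2 families were followed in Arabidopsis thaliana roots, namely 7 jacalin-related lectins (AT5G35940, AT5G35950, AT1G52050, AT1G52060, AT1G52070, JAL33 and JAL34) and 3 beta-glucosidases (BGLU21, BGLU22 and BGLU45). They were chosen by locus, and all 10 of 10 had a probe set paired with exactly 1 gene, among 16548 genes measured in that way. The arrays compared 3 genotypes of the Col-0 ecotype with 3 arrays each: a bHLH49 overexpressor, a bHLH49 loss-of-function mutant and wild type, with RNA from roots of seedlings kept for 4 days on MS medium. The factor bHLH49 belongs to the basic helix-loop-helix family of transcription regulators. The sources used here do not name the promoter of the overexpressor, the mutant allele, the number of independent lines or the number of plants pooled per array, and do not say which seeds were kept on antibiotic for selection of the transgene. The tissue label speaks of roots and the source label of root tips. Nothing says that the numbered repeats of a genotype are separate batches of plants, and p-values thus cover only the scatter between arrays, part of which may be technical.

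Jacalin-related lectins are carbohydrate-binding proteins that form a large family in the Brassicaceae. Root cells of Arabidopsis store beta-glucosidases in ER bodies, spindle-shaped compartments of the endoplasmic reticulum, of which PYK10 (BGLU23) is the main enzyme. When cells break, PYK10 and its close relatives BGLU21 and BGLU22 meet their substrates and gather in large complexes with lectins, JAL33 and JAL34 among them. BGLU21, BGLU22 and PYK10 can release the coumarin scopoletin from its glucoside scopolin, while BGLU45 acts on glucosides of monolignols, the building blocks of lignin.

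The members were chosen with earlier results of these arrays known. The values of the 3 genotypes are therefore given as a description, and an adjusted p below shows where a gene stood in the limma fit across all 38408 probe sets and is not independent evidence. "Rose", "fell" and "called" stand for a Benjamini-Hochberg adjusted p below 0.05 in that fit. Levels are log2 expression values as the authors deposited them, changes are differences of these, given with their standard error (SE), and levels of different genes are not compared because each has its own probes. No probe set with 1 gene was paired with bHLH49, so the genotype labels were not checked by its level. The 9 arrays had medians between 5.85 and 5.92 and correlated with each other between 0.988 and 0.993. Of 10 root markers 6 were measured, with levels between 6.50 and 13.22, and of 7 shoot markers 2 were measured (RCA and LHCB4.1), between 6.37 and 7.80. The summed root markers lay between 13.69 and 13.71 on the log2 scale in the overexpressor, 13.53 and 13.59 in the mutant, and 13.60 and 13.63 in wild type. The sums are of unlogged values and mostly follow PYK10, itself a beta-glucosidase, which had the highest values of the 6. The median change of the 6 was -0.03 in the overexpressor and -0.17 in the mutant against wild type. For the summed shoot markers the ranges were 8.15 to 8.30, 8.21 to 8.32 and 8.03 to 8.23 in the overexpressor, the mutant and wild type.

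In the overexpressor against wild type, BGLU45 rose while BGLU21 and the lectin AT5G35940 fell. The other 7 members were not called, with changes between -0.31 and 0.34. Thus 1 of 10 members was called higher and 2 lower, where 1.35% of all probe sets were called, 0.745% higher and 0.609% lower; the members were chosen with these values known. In the mutant against wild type AT5G35940 fell and the other 9 members were not called, with changes between -0.16 and 0.07; 0.0234% of all probe sets were called there, 0.0156% higher and 0.00781% lower. Between the overexpressor and the mutant BGLU45 was higher and BGLU21 lower, and 8 members were not called, against 1.83% of all probe sets called, 0.971% higher and 0.857% lower. The median change of the 10 members was 0.15 for overexpressor against wild type, -0.01 for mutant against wild type and 0.17 for overexpressor against mutant, and over all probe sets it was -0.01, 0.00 and -0.01. The plot of changes shows BGLU21, AT5G35940 and BGLU45 apart from the rest, whose changes lie between -0.31 (AT5G35950) and 0.34 (JAL33) in the overexpressor against wild type.

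**Figure D1:**
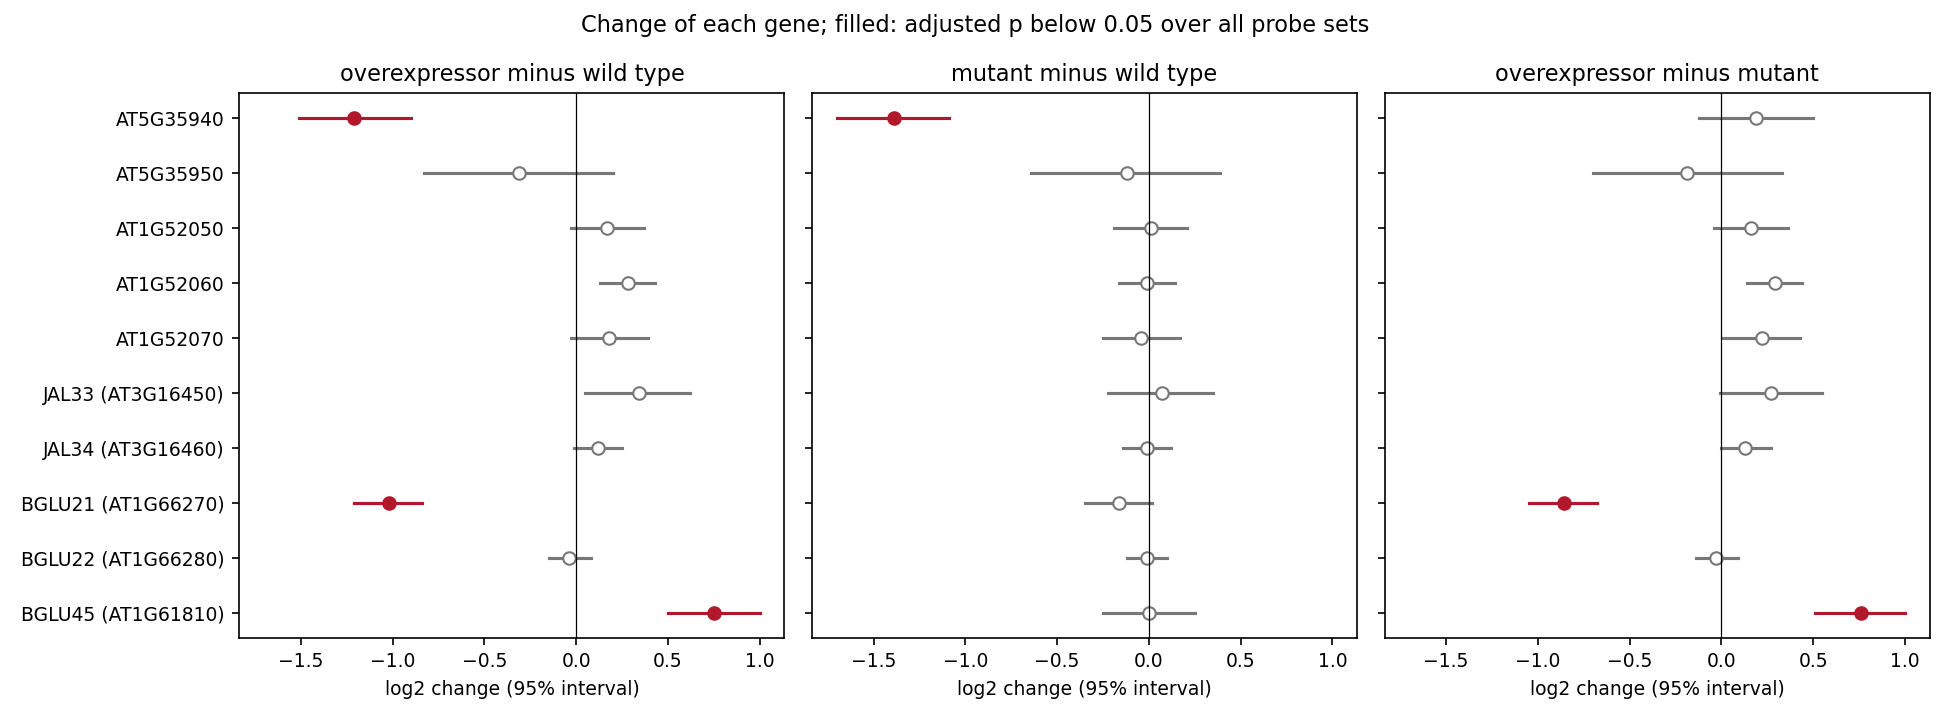
Log2 change of each of the 10 genes with its 95% interval from the limma fit (horizontal axis), in 3 panels for overexpressor minus wild type, mutant minus wild type and overexpressor minus mutant. Filled points were called: AT5G35940 (-1.21), BGLU21 (-1.02) and BGLU45 (0.75) in the first panel, AT5G35940 (-1.39) in the second, BGLU21 (-0.86) and BGLU45 (0.76) in the third.

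For 7 of the 10 members the overexpressor arrays lay wholly outside the wild-type range, 5 of them higher and 2 lower. This was so for 19.5% of all probe sets, 8.85% higher and 10.7% lower. Between mutant and wild type it held for 1 member, which was lower, against 12.4% of all probe sets, 6.35% higher and 6.04% lower. Between overexpressor and mutant it held for 6 members, 5 higher and 1 lower, against 20.5% of all probe sets, 9.31% higher and 11.2% lower. The plot of levels by array shows these separations gene by gene.

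**Figure D2:**
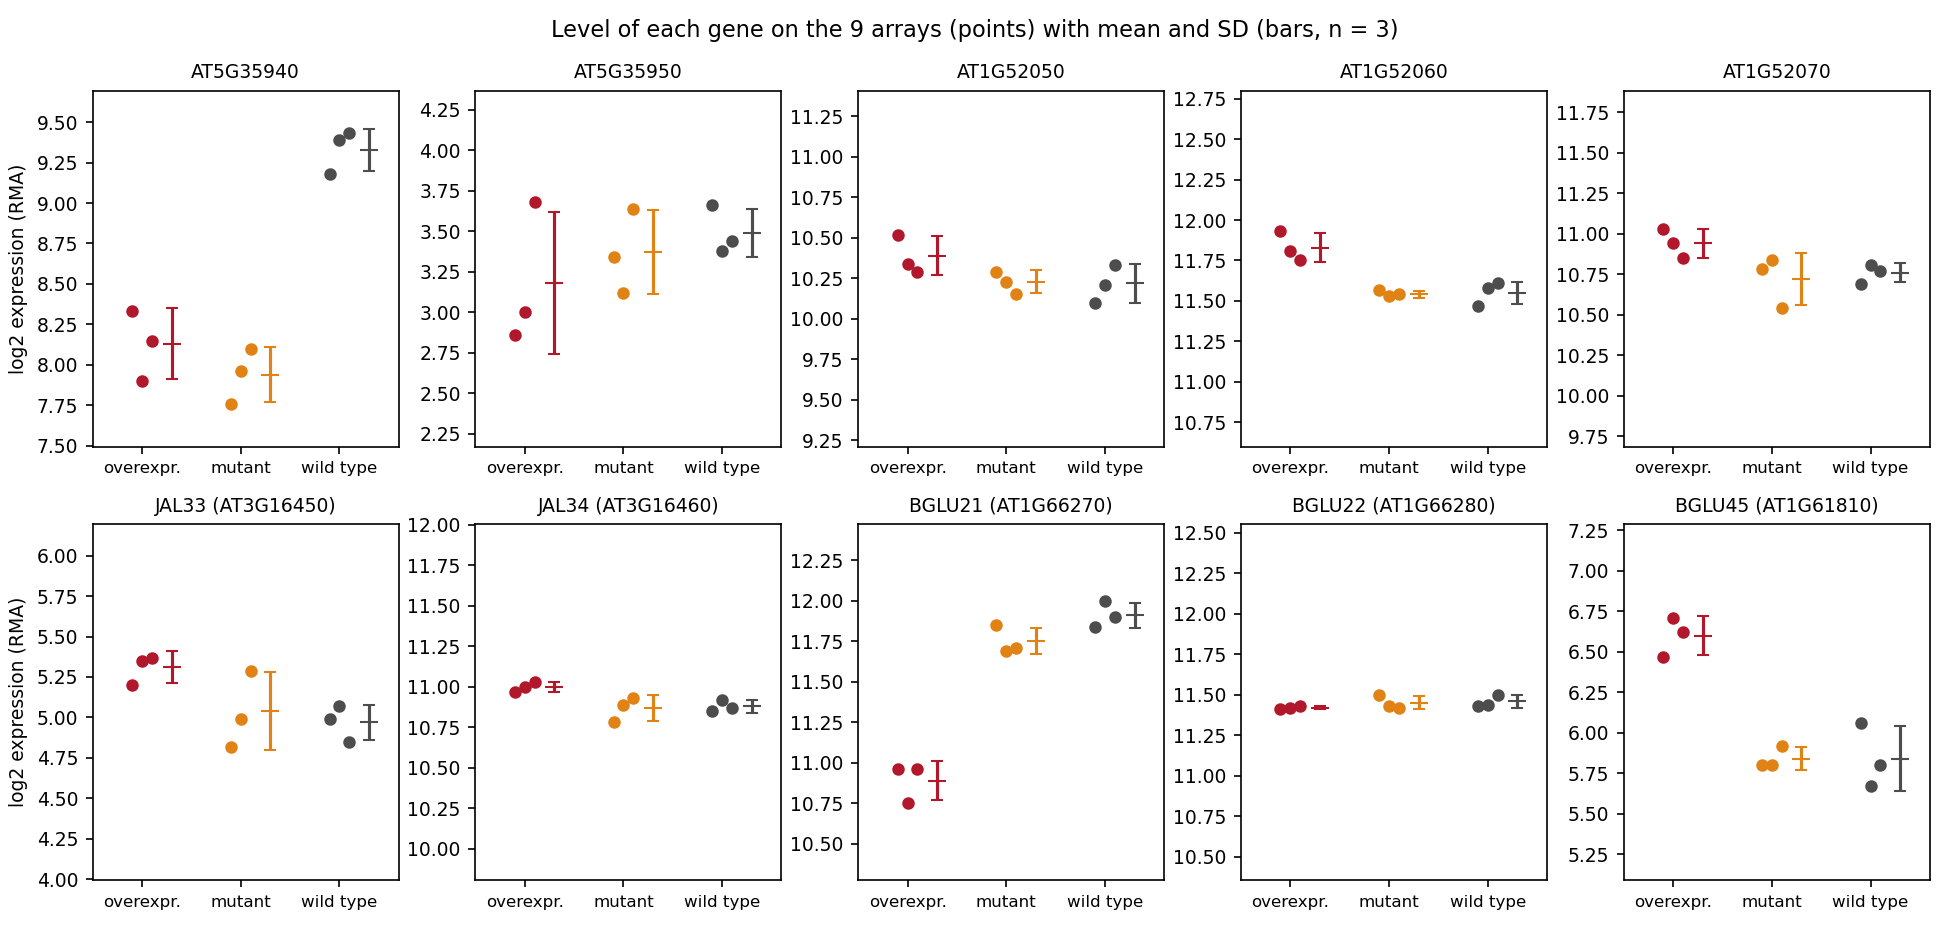
Log2 expression of each of the 10 genes on the 9 arrays (points), with the mean and SD of each genotype beside them (bars, n = 3), on axes that all span the same log2 distance. BGLU21 was lower on the 3 overexpressor arrays (10.75 to 10.96) than on all others, AT5G35940 was higher on the 3 wild-type arrays (9.18 to 9.43), and BGLU22 stayed between 11.41 and 11.50 on all 9.

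BGLU21 (AT1G66270), a scopolin-cleaving root beta-glucosidase, stood at 10.96, 10.75 and 10.96 in the overexpressor, at 11.85, 11.69 and 11.71 in the mutant and at 11.84, 12.00 and 11.90 in wild type. The overexpressor arrays were lower than each of the other 6, while mutant and wild-type arrays overlapped. In the overexpressor BGLU21 fell by 1.02 on the log2 scale against wild type, to 0.492 times the wild-type level (SE 0.08 on the log2 scale; 95% interval 0.432 to 0.559 times; limma adjusted p = 0.00204). Against the mutant the change was -0.86 ± 0.08 (SE; limma adjusted p = 0.00311). The mutant differed from wild type by -0.16 ± 0.08 with a 95% interval from -0.35 to 0.02 (limma adjusted p = 0.629). In all 11 alternatives of the fit BGLU21 was called between overexpressor and wild type, with log2 changes from -1.06 to -0.96. As these are bulk roots, fewer cells that express a gene and less RNA per cell cannot be told apart, here or below.

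BGLU22 (AT1G66280), the neighbouring gene and close relative with the same kind of activity, was nearly constant. Its levels were 11.41, 11.42 and 11.43 in the overexpressor, 11.50, 11.43 and 11.42 in the mutant and 11.43, 11.44 and 11.50 in wild type, so that the 3 genotypes overlapped. The change in the overexpressor against wild type was -0.04, with a 95% interval from -0.15 to 0.08, and it was -0.01 in the mutant, with an interval from -0.12 to 0.10. Within each array, BGLU21 minus BGLU22 was -0.46, -0.67 and -0.47 in the overexpressor, 0.35, 0.26 and 0.29 in the mutant and 0.41, 0.55 and 0.40 in wild type. The difference was lower on each of the 3 overexpressor arrays than on the other 6, with means of -0.53 ± 0.12 in the overexpressor, 0.30 ± 0.04 in the mutant and 0.45 ± 0.09 in wild type (SD, n = 3 each). Its shift of -0.99 for overexpressor against wild type mostly restates the change of BGLU21 (-1.02), as BGLU22 changed by -0.04. Probe sequences were not used here, so how far the probe sets of such close relatives share signal was not tested.

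BGLU45 (AT1G61810), the monolignol glucosidase, stood at 6.47, 6.71 and 6.62 in the overexpressor, at 5.80, 5.80 and 5.92 in the mutant and at 6.06, 5.67 and 5.80 in wild type. All 3 overexpressor arrays lay above the other 6, among which mutant and wild type overlapped. The gene rose to 1.69 times the wild-type level in the overexpressor (log2 change 0.75 ± 0.11, SE; 95% interval 1.42 to 2.00 times; limma adjusted p = 0.0194) and was 0.76 ± 0.11 above the mutant (limma adjusted p = 0.0163). Mutant minus wild type was 0.00, with a 95% interval from -0.25 to 0.25. The call against wild type ended without wild-type replicate 2 (limma adjusted p = 0.0675) or 3 (0.0692) and without overexpressor replicate 2 (0.0792) or 3 (0.0748), with changes of 0.67 to 0.74, and with only the 6 arrays compared (0.0800); over the 11 alternatives the adjusted p ran between 0.0059 and 0.0862. Against the mutant it ended without mutant replicate 1 (limma adjusted p = 0.0626) or 2 (0.0628) and without overexpressor replicate 2 (0.0671) or 3 (0.0695), in a range of 0.0051 to 0.0701.

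BGLU46 (AT1G61820), the next gene on the chromosome and another enzyme of monolignol glucosides, was not called in any of the 3 comparisons. It stood at 8.16, 8.13 and 8.28 in the overexpressor, at 8.16, 7.98 and 8.11 in the mutant and at 8.07, 8.13 and 8.14 in wild type, and the genotypes overlapped. Its change in the overexpressor against wild type was 0.08 ± 0.07 (SE). BGLU45 minus BGLU46 within each array averaged -1.59 ± 0.15 in the overexpressor, -2.24 ± 0.10 in the mutant and -2.27 ± 0.23 in wild type (SD, n = 3 each).

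AT5G35940, a jacalin-related lectin, was lower in both altered lines. Its levels were 8.33, 7.90 and 8.15 in the overexpressor, 7.76, 7.96 and 8.10 in the mutant and 9.18, 9.39 and 9.43 in wild type. The wild-type arrays lay above all 6 others, and the overexpressor and mutant arrays overlapped. Against wild type it fell to 0.433 times the level in the overexpressor (95% interval 0.350 to 0.536; limma adjusted p = 0.00646) and to 0.381 times the level in the mutant (0.307 to 0.471; limma adjusted p = 0.0318). These comparisons share the 3 wild-type arrays. The overexpressor minus mutant difference was 0.19 ± 0.13 on the log2 scale (SE), with a 95% interval from -0.12 to 0.50 and limma adjusted p = 0.561. The call in the mutant was lost when any 1 of the 6 arrays was left out (limma adjusted p 0.113 to 0.237, changes -1.47 to -1.30) and with only the 6 arrays compared (0.217), and the 11 alternatives ran between 0.0142 and 0.237. In the overexpressor the call was kept in all 11 alternatives, with changes from -1.31 to -1.09.

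AT5G35950, the related lectin gene beyond 1 intervening annotated gene, was dim. It lay below the lower quartile of the array on 7 of 9 arrays, at 2.86, 3.00 and 3.68 in the overexpressor, 3.34, 3.12 and 3.64 in the mutant and 3.66, 3.38 and 3.44 in wild type. The genotypes overlapped, and its 95% intervals were wide, from -0.83 to 0.20 for overexpressor minus wild type and from -0.64 to 0.39 for mutant minus wild type.

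AT1G52050, AT1G52060 and AT1G52070 are 3 adjacent lectin genes, and 0 of them were called by the limma fit in any comparison. AT1G52060 stood at 11.93, 11.81 and 11.75 in the overexpressor, 11.57, 11.53 and 11.54 in the mutant and 11.47, 11.58 and 11.61 in wild type. All 3 overexpressor arrays were above the other 6. Its change against wild type was 0.28 ± 0.06 (SE; 95% interval 0.13 to 0.43; unadjusted p = 0.00267, limma adjusted p = 0.102), and against the mutant 0.29 ± 0.06 (limma adjusted p = 0.079). With eBayes trend and robust settings AT1G52060 was called, upward (limma adjusted p = 0.0333 against wild type and 0.0248 against the mutant), and likewise with a filter on dim probe sets (0.0344 and 0.0271). Over the 11 alternatives its adjusted p ran between 0.0333 and 0.268 against wild type and between 0.0248 and 0.194 against the mutant.

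AT1G52050 had 10.52, 10.34 and 10.29 in the overexpressor, 10.29, 10.23 and 10.15 in the mutant and 10.10, 10.21 and 10.33 in wild type, with 1 wild-type array inside the overexpressor's range. AT1G52070 had 11.03, 10.94 and 10.85 in the overexpressor, 10.78, 10.84 and 10.54 in the mutant and 10.69, 10.81 and 10.77 in wild type, without overlap between the overexpressor and either other genotype. Their changes in the overexpressor against wild type were 0.17 ± 0.09 and 0.18 ± 0.09 (SE). In the mutant the changes of the 3 genes were 0.01, -0.01 and -0.04. Overexpressor replicate 1 held the highest of the 9 values for each of the 3 genes. Probe sets of such similar neighbours may share signal, which was not tested.

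JAL33 (AT3G16450) and JAL34 (AT3G16460), adjacent genes for lectins found with PYK10 complexes, were not called either. JAL33 stood at 5.20, 5.35 and 5.37 in the overexpressor, 4.82, 4.99 and 5.29 in the mutant and 4.99, 5.07 and 4.85 in wild type. JAL34 stood at 10.97, 11.00 and 11.03 in the overexpressor, 10.78, 10.89 and 10.93 in the mutant and 10.85, 10.92 and 10.87 in wild type. For both genes the overexpressor arrays lay above the wild-type arrays, and for JAL34 also above the mutant arrays. The changes in the overexpressor against wild type were 0.34 ± 0.12 for JAL33 (SE; unadjusted p = 0.0258, limma adjusted p = 0.284) and 0.12 ± 0.06 for JAL34 (unadjusted p = 0.0685, limma adjusted p = 0.412). Mutant replicate 1 was the lowest and overexpressor replicate 3 the highest of the 9 arrays for both.

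The rest of each family was taken from a list of loci, of which 26 of 39 other lectins and 21 of 44 other beta-glucosidases were measured. Of the 26 other jacalin-related lectins, 2 rose, 1 fell and 23 were not called in the overexpressor against wild type, 11.5% of them called against 1.35% of all probe sets; 12 of the 26 lay below the lower quartile on most arrays. JAL22 (AT2G39310), a lectin found with PYK10 complexes, stood at 8.17, 8.52 and 8.28 in the overexpressor, 6.71, 7.53 and 7.77 in the mutant and 6.97, 6.89 and 6.92 in wild type. It rose to 2.63 times the wild-type level (95% interval 1.77 to 3.90; limma adjusted p = 0.0418). Mutant arrays of JAL22 ranged from below to above the wild-type arrays, all under those of the overexpressor. The overexpressor minus mutant change of JAL22 was 0.98 and was not called (limma adjusted p = 0.107). With the filter on dim probe sets it passed (0.0474). AT5G49850 rose by 0.73 ± 0.10 (SE; limma adjusted p = 0.0179), with 7.53, 7.58 and 7.42 in the overexpressor, 7.24, 7.29 and 7.23 in the mutant and 6.85, 6.54 and 6.93 in wild type. The mutant lay between the other genotypes without overlap, and its change against wild type was 0.48 (limma adjusted p = 0.3).

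AT1G33790 fell by 0.57 in the overexpressor (SE 0.08; limma adjusted p = 0.0202), with means of 4.27 ± 0.03 in the overexpressor, 4.47 ± 0.15 in the mutant and 4.83 ± 0.07 in wild type (SD, n = 3). The calls of JAL22 and AT1G33790 were lost without any 1 of the 6 arrays (limma adjusted p 0.0949 to 0.146 and 0.0598 to 0.0883). Both were also lost with the repeat number as a block (0.0854 and 0.0542). The call of AT5G49850 was lost without wild-type replicate 1 (0.0592), overexpressor replicate 1 (0.0664) or overexpressor replicate 2 (0.0743). The call of AT5G49850 was also lost with the repeat number as a block (0.081) and with only the 6 arrays compared (0.0785). In the mutant against wild type 0 of the 26 were called by limma, with 8 at an unadjusted p below 0.05 and changes from -0.37 to 0.89. Of all probe sets, 13.6% had an unadjusted p below 0.05 for overexpressor against wild type, 8.44% for mutant against wild type and 15.1% for overexpressor against mutant, shares that also stand beside the counts of this kind for the lists that follow. The highest change of the 26 in the mutant against wild type was that of AT1G52120, a lectin gene 4 annotated places beyond AT1G52070. It stood at 4.28, 4.33 and 3.82 in the overexpressor, 5.07, 4.97 and 4.92 in the mutant and 4.19, 3.99 and 4.11 in wild type. The mutant arrays stood above all others. AT1G52120 was lower in the overexpressor than in the mutant by -0.84 ± 0.13 (SE; limma adjusted p = 0.0231). That call was lost without mutant replicate 1 (0.0843), 2 (0.0758) or 3 (0.0600). It was also lost with the repeat number as a block (0.052) and with only the 6 arrays compared (0.0897). The change of AT1G52120 in the mutant against wild type was 0.89 (limma adjusted p = 0.224). The other bright lectins were not called: AT2G25980 had a change of -0.25 in the overexpressor against wild type, and JAL31, also found with PYK10, had 0.13. The median of the 26 was 0.05, 0.00 and 0.07 for overexpressor against wild type, mutant against wild type and overexpressor against mutant.

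Of the 21 other beta-glucosidases, limma called 0 in each comparison, with 3, 2 and 5 at an unadjusted p below 0.05 for overexpressor against wild type, mutant against wild type and overexpressor against mutant. Their medians were 0.09, -0.02 and 0.14, and their changes in the overexpressor against wild type spanned -0.22 to 0.43. PYK10 (AT3G09260), the main ER body enzyme, stood at 13.16, 13.22 and 13.17 in the overexpressor, 13.09, 13.02 and 13.04 in the mutant and 13.04, 12.99 and 13.07 in wild type. The overexpressor arrays of PYK10 lay above the rest by a small margin, with a change of 0.15 ± 0.05 against wild type (SE; limma adjusted p = 0.249). BGLU15 and BGLU42, the other bright members, changed by -0.04 and -0.22. The plot of both families places BGLU21 and BGLU45 outside the span of the other 21 enzymes in both comparisons with the overexpressor.

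**Figure D3:**
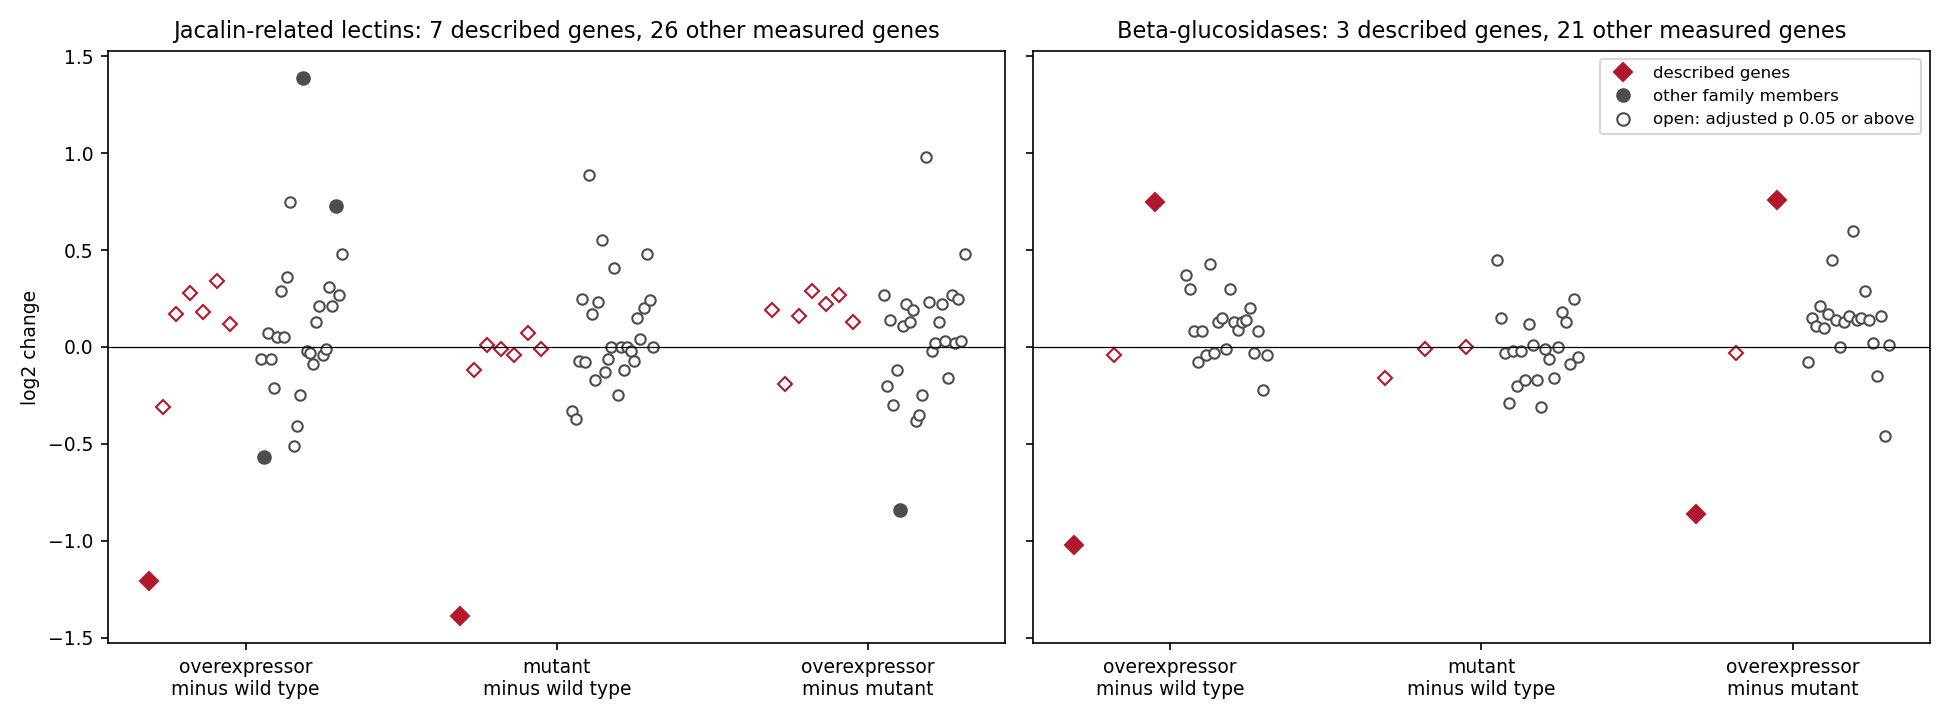
Log2 changes (vertical axis) of the 7 lectins and 3 beta-glucosidases described (red diamonds) and of the 26 and 21 other measured members of each family (dark circles) in the 3 comparisons, filled where called. The described genes were chosen with their values known. Among the others JAL22 (1.39) and AT5G49850 (0.73) rose and AT1G33790 (-0.57) fell in the overexpressor against wild type, and AT1G52120 (-0.84) was lower in the overexpressor than in the mutant.

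Besides the members, 8 of 16 genes of the ER body and PYK10 complex list were measured. PYK10, JAL22, JAL23 and JAL31 among them also stand in the family counts above. In the overexpressor against wild type JAL22 alone was called and 7 were not (median change 0.10), 12.5% called against 1.35% of all probe sets. In the other comparisons 0 were called. For overexpressor against wild type, mutant against wild type and overexpressor against mutant, 4, 0 and 4 had an unadjusted p below 0.05. The shares of all probe sets were 13.6%, 8.44% and 15.1%. The list was chosen with earlier results of these data known. NAI1 (AT2G22770), the bHLH factor needed for ER bodies, stood at 7.34, 7.42 and 7.30 in the overexpressor, 6.85, 6.98 and 7.09 in the mutant and 7.01, 7.18 and 7.10 in wild type. Its overexpressor arrays lay above the other 6, with changes of 0.25 ± 0.08 against wild type (SE; limma adjusted p = 0.212) and 0.38 ± 0.08 against the mutant (limma adjusted p = 0.063). NAI1 passed against the mutant under 3 of the 11 alternatives (limma adjusted p 0.0222 to 0.0422 there, and up to 0.177 in the others). NAI2, a structural component of ER bodies, had a change of 0.07 in the overexpressor against wild type. The GDSL lipase-like gene AT1G54010 (GLL23) went the other way, with overexpressor changes of -0.32 against wild type (limma adjusted p = 0.215) and -0.39 against the mutant (0.118). Its overexpressor arrays (9.66 to 10.00) lay below those of the mutant (10.23 to 10.32) and wild type (10.12 to 10.33). AT1G54010 passed against the mutant with the filter on dim probe sets (limma adjusted p = 0.0493). PBP1, a PYK10-binding lectin, was not analysed here.

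For coumarins, 5 of 9 genes besides the members were measured by 6 probe sets, with BGLU42 and PYK10 of the beta-glucosidase family among them. Limma called 0 of the 6 in each comparison, with 2, 2 and 3 at an unadjusted p below 0.05. BGLU42, which acts in the release of coumarins under iron deficiency, had a change of 0.25 in the mutant and -0.22 in the overexpressor against wild type. The brighter probe set of AT1G28680, the coumarin synthase COSY, had a change of 0.05 in the overexpressor against wild type. The other probe set of this gene had -0.07. The changes of the 6 probe sets spanned -0.36 to 0.26 in the overexpressor and -0.36 to 1.90 in the mutant against wild type. At the ends of these spans were AT3G12900 and AT1G55290, picked out here after their values were seen. AT3G12900 (S8H), the scopoletin 8-hydroxylase, stood at 5.72, 6.59 and 6.23 in the overexpressor, 8.39, 7.86 and 7.20 in the mutant and 5.64, 5.54 and 6.58 in wild type. Its mutant arrays lay above the other 6, with a mutant minus wild type change of 1.90 ± 0.39 (SE; limma adjusted p = 0.295) and an overexpressor minus mutant change of -1.64 (limma adjusted p = 0.0915). AT1G55290 had a change of -0.36 in both lines against wild type (limma adjusted p = 0.163 in the overexpressor and 0.439 in the mutant). Of the monolignol genes 5 of 16 were measured, and limma called 0 of the 5 in each comparison, with 1 at an unadjusted p below 0.05 in each. BGLU46, also counted with the beta-glucosidases, was among the 5. The glucosyltransferase UGT72E1, which puts glucose on monolignol aldehydes, had changes of 0.27 in the overexpressor and 0.49 in the mutant against wild type, and HCT, a shikimate transferase early in monolignol synthesis, had 0.00 and -0.02. Of the 13 genes listed for the myrosinase system 0 had a probe set with 1 gene, and these 13 were not analysed here.

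Among the root markers, the root cap polygalacturonase AT1G65570 rose in the overexpressor, with 8.34, 8.04 and 8.15 there, 7.50, 7.26 and 6.94 in the mutant and 6.50, 6.74 and 6.58 in wild type, a change of 1.57 ± 0.15 against wild type (SE; limma adjusted p = 0.00358). The other 5 root markers were not called and the 2 shoot markers were not called. The part of root cap cells in the changes of BGLU21, BGLU45 and AT5G35940 was not tested.

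Of the measured genes within 5 annotated places of the members, limma called AT1G61840 and IQD26 in the overexpressor against wild type. That was 1 of 8 next to BGLU45, 1 of 4 around JAL33 and JAL34 and 0 elsewhere, against 1.35% of all probe sets. Between overexpressor and mutant it called these genes and AT1G52120, against 1.83% of all probe sets. In the mutant against wild type it called 0, against 0.0234%. Around AT5G35940 and AT5G35950, 5 of 10 neighbours were measured and lay between -0.13 and -0.02 in the overexpressor and between -0.03 and 0.04 in the mutant against wild type. Around BGLU21 and BGLU22, 9 of 10 were measured, with 0 called by limma in each comparison and changes between -0.36 and 0.20 in the overexpressor. Next to BGLU45, 8 of 10 were measured and AT1G61840, at the second place beyond BGLU45, rose by 0.43 ± 0.06 in the overexpressor (SE; limma adjusted p = 0.0188), a call lost when any 1 of the 6 arrays was left out (adjusted p up to 0.083). Around JAL33 and JAL34, 4 of 10 were measured and IQD26 (AT3G16490), a calmodulin-binding IQ-domain protein, fell by 0.70 ± 0.07 (SE; limma adjusted p = 0.0036). The lectin cluster at AT1G52050 had 8 of 10 neighbours measured, of which AT1G52120 alone was called, as given above. The plot by gene order sets these neighbours beside the members.

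**Figure D4:**
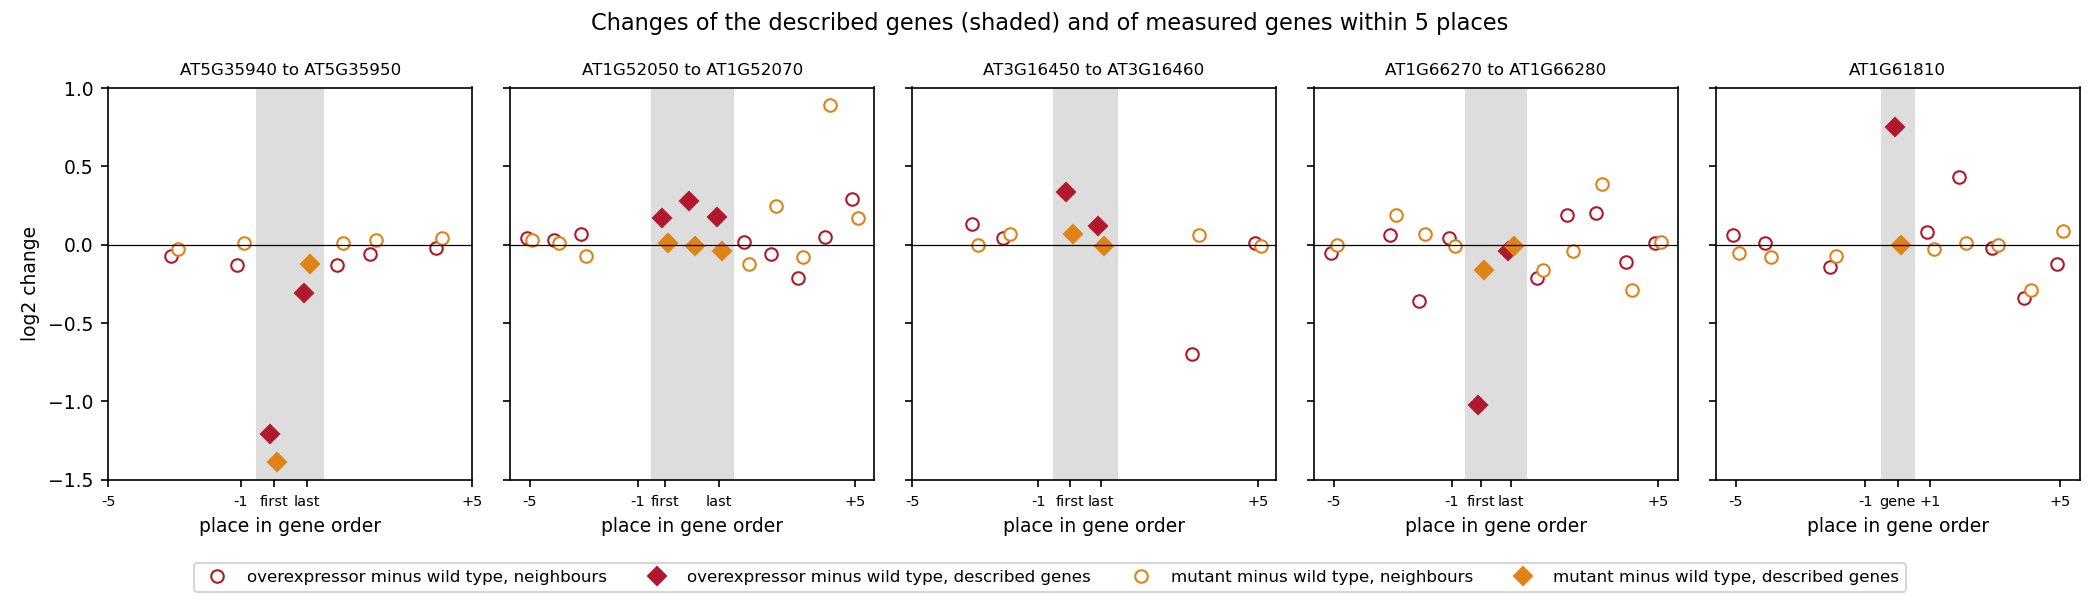
Log2 changes (vertical axis) of the described genes (diamonds, shaded) and of the measured genes within 5 annotated places (circles) in order along the chromosome, for overexpressor minus wild type (red) and mutant minus wild type (orange). AT5G35940 (-1.21 and -1.39) and BGLU21 (-1.02 in the overexpressor) stand apart from their neighbours, while BGLU22 lies at -0.04 beside BGLU21. Near BGLU45 (0.75 in the overexpressor) AT1G61840 also rose (0.43).

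The named genes with profiles closest to the called members were found by Pearson's r over the 9 arrays, which mostly restates the difference between genotypes and is given as a description. For BGLU21 these were AT2G03505 (r = 0.992), AT1G69526 (0.987) and AT5G02180 (0.985), which fell in the overexpressor against wild type by 0.78, 1.39 and 0.69 (limma adjusted p 0.0024 to 0.00262). AT5G35940 was closest to AT3G59930 (r = 0.96), AT3G25030 (0.948) and AT3G24750 (0.934). AT3G25030 and AT3G24750 moved by only -0.12 and -0.17 in the overexpressor against wild type. In the mutant their changes were -0.17 and -0.2, and neither gene was called. AT3G25030 lay below the lower quartile on 9 of 9 arrays. AT3G59930 was dim, below the lower quartile on 7 of 9 arrays, with means of 2.82 ± 0.12 in the overexpressor, 2.59 ± 0.11 in the mutant and 3.78 ± 0.31 in wild type (SD, n = 3), and it fell by 0.96 in the overexpressor (limma adjusted p = 0.0264). That call was lost without wild-type replicate 2 (limma adjusted p = 0.0903) or overexpressor replicate 1 (0.0793), 2 (0.108) or 3 (0.075). It was also lost with the repeat number as a block (0.081) and with only the 6 arrays compared (0.0966). The change of AT3G59930 in the mutant against wild type, -1.19, was not called (limma adjusted p = 0.134). For BGLU45 the closest were AT1G04990 (r = 0.989), the tyrosine aminotransferase gene AT5G36160 (0.979) and AT5G35870 (0.974). AT1G04990 and AT5G36160 moved by only 0.16 and 0.24 in the overexpressor against wild type and were not called, while AT5G35870 rose by 3.29 (limma adjusted p = 0.00204). AT5G35870 was dim in the mutant and wild type, below the lower quartile on all 6 of those arrays, so the size of its change rests on levels near the bottom of the array.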

How the data were processed

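RNA from 9 root samples was measured on single-channel expression arrays. The authors deposited 1 table of log2 values for 38408 probe sets with 0 missing values. The tool named is RMA, per the submitters' processing notes (version not given in the sources used here). Its values entered the fit unaltered. Arrays have no read depth; precision is limited by how many there are.

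Gene names came from the platform annotation and NCBI RefSeq genes of TAIR10.1, used for names and gene order only: 16722 probe sets had 1 gene (16574 matched RefSeq), 759 had several and 20927 were not listed. All 10 members matched, and 0 of them repeated the values of another probe set. Low values were not filtered, so 10 members entered the fit; 8 would pass a filter at the 50th percentile of the mean.

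One linear model per probe set covered all 9 arrays (lmFit, then eBayes, of limma 3.58.1 under R 4.3.3), with 6 residual and 1.85 prior degrees of freedom and Benjamini-Hochberg adjustment over 38408 p-values. The fit was tested on simulated data. Same-numbered arrays did not deviate together, so no pairing was used. Every member is named; of the listed genes, those called and the 3 brightest of each list, with NAI1, NAI2, PYK10 and BGLU46; of neighbours within 5 places, those called; and the 3 genes most like each called member. The members and the lists were chosen with earlier results of these data known. Alternatives were the repeat number as a block, trend and robust settings of eBayes, only the 6 arrays compared, a filter at the 50th percentile, arrays centred on their medians, and leaving out each array. Sequences were not used here.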

Additional observations from a re-analysis of the deposited data

How the results depend on the processing

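Members called, against 3 (overexpressor against wild type), 1 (mutant against wild type) and 2 (overexpressor against mutant) in the fit reported, changed as follows. Mutant against wild type had 0 with a replicate block, 0 with only the 6 arrays compared and 0 to 0 without 1 array, AT5G35940 being the gene lost. Overexpressor against mutant had 1 with the replicate block and 1 to 2 without 1 array, and overexpressor against wild type 2 with the block and 2 to 3 without 1 array, BGLU45 being the gene lost. With trend and robust and with the filter at the 50th percentile, AT1G52060 was gained, giving 4 for overexpressor against wild type and 3 for overexpressor against mutant. BGLU21 was called in all 11 alternatives of both comparisons with the overexpressor. All probe sets called numbered 520 for overexpressor against wild type, and 200 with the replicate block, 798 with eBayes trend and robust, 249 with only the 6 arrays compared, 878 with a filter at the 50th percentile and 174 to 245 without 1 array. The mutant had 9, and 1 with the replicate block, 2 with only the 6 arrays compared and 1 to 6 without 1 array. Overexpressor against mutant had 702, and 347, 1107, 260, 1211 and 295 to 510 under the same settings as the first. Centring each array on its median gave a split of higher and lower calls of 458 and 251 for overexpressor against mutant, against 373 and 329, and 6 and 5 for the mutant, against 6 and 3. Fewer arrays leave fewer degrees of freedom; other causes were not tested. The repeat numbers share no stated batch, and deviations of same-numbered arrays correlated between -0.088 and 0.032 over all probe sets. Of the values recomputed for single genes, 1152 kept their side of the threshold, 67 lost a call and 13 gained one. The 1 left, BGLU22 between overexpressor and mutant, was not called either way and was 0.00 with centred arrays against -0.03.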

Other observations

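BGLU22 was among the least variable probe sets of the arrays although the adjacent BGLU21 was among the most variable of its brightness. Its 9 values spanned 0.09 on the log2 scale, and of 920 probe sets with a mean within 0.5 of its own, 31 (3.37%) spanned less, the median span being 0.25. For BGLU21 the span was 1.24, and 860 of 862 probe sets of like mean spanned less. For AT5G35940, with a span of 1.66, it was 3871 of 3882. By the same share the other members lay between 34.9% (JAL33) and 88.8% (AT1G52060), with BGLU45 at 81.1%. The members were chosen with these values known. The spans of BGLU21 and AT5G35940 mostly restate their differences between genotypes, and the ranks are given as a description.

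AT5G35870, which the likeness to BGLU45 named, lies on the same chromosome as AT5G35940 with 9 annotated genes between them. It stood at 5.71, 6.72 and 6.13 in the overexpressor, 2.76, 3.11 and 2.75 in the mutant and 3.10, 2.58 and 3.01 in wild type, so that the overexpressor arrays lay far above the others, which were below the lower quartile of the array (3.65 to 3.70). Of the 9 genes between, 4 were measured and limma called 0 of them in the overexpressor against wild type, with changes from -0.13 to 0.24. This stretch was looked at after the values were seen.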
